A study of Mus musculus with 6 samples.

Results

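Neutrophil secondary granule and alarmin genes are described here in RNA sequencing libraries of sorted mouse haematopoietic stem cells (HSCs), rare marrow cells from which every type of blood cell derives. The members were the 10 rows of the deposited tables named S100a8, S100a9, Ltf, Lcn2, Camp, Ngp, Retnlg, Mmp8, Mmp9 and Ly6g, out of 18368 genes in the count table, and all 10 passed the filter on low counts. The study compared 3 libraries from adult Ramp1+/+ mice, called wild type, with 3 from adult mice whose genotype is labelled Ramp-/- and whose titles read Ramp1 Mut, called mutant. Each library came from about 2000 HSCs sorted from bone marrow. No treatment is labelled, and the sort gate, the strain, the part of Ramp1 that the allele removes and whether each library came from a separate animal are not given in the sources used here, so each p-value measures only how these libraries varied, which may be technical.

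Maturing neutrophils fill their granules in waves. Primary (azurophil) granule genes such as Mpo and Elane are used first, in granulocyte-monocyte progenitors and promyelocytes; secondary (specific) granule genes such as Ltf, Camp, Ngp and Lcn2 follow in myelocytes under the transcription factor C/EBP epsilon; gelatinase and surface genes such as Mmp9 and Ly6g come later. S100a8 and S100a9 encode the 2 chains of calprotectin, a calcium- and zinc-binding protein that fills the neutrophil cytosol and acts as an alarmin when released. HSCs themselves are not known for this programme.

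Upstream sequence is shown for 4 of the members that held a C/EBP core match, as defined below. These genes are textbook targets of C/EBP and PU.1 factors. RefSeq promoter windows (GRCm38.p6, 250 bases before to 50 after the start of the gene) were found for 9 of the 10 members, all but Mmp9. Each sequence runs 5′ to 3′ on the strand of its gene and ends before the first base that any GENCODE transcript of the gene holds in an exon. Capitals mark matches, on either strand, to a C/EBP core written TTGCNNAA or a PU.1 site written AGGAAGT, and no marked match overlaps another.

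S100a9 (chr3:90695722-90695971, minus strand): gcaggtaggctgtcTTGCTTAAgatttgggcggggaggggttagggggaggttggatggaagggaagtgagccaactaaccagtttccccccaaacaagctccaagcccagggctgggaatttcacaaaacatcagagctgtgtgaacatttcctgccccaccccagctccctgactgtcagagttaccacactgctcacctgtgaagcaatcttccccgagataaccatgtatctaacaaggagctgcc

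Ngp (chr9:110419558-110419746, plus strand): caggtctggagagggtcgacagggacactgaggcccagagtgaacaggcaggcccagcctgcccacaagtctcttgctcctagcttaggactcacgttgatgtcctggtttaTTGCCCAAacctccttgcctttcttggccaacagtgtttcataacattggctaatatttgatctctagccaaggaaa

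Ltf (chr9:111019042-111019270, plus strand): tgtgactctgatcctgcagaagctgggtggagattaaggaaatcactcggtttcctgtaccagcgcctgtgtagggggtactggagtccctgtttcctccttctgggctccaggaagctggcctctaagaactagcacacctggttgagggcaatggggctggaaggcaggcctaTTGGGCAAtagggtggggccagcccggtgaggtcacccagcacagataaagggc

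Mmp8 (chr9:7558179-7558428, plus strand): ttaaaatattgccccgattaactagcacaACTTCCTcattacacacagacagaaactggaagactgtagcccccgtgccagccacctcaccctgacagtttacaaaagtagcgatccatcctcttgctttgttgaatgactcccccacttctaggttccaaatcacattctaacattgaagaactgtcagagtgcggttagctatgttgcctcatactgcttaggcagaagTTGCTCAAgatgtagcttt

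The C/EBP core was found in the 300-base windows of 7 of the 9 members: S100a9, Ltf, Lcn2, Ngp, Retnlg, Mmp8 and Ly6g. It was absent from those of S100a8 and Camp, which are not printed. Of all 32851 windows in the RefSeq table, 10.8% held it. In the Mmp8 window it began 19 bases before the start, in Ltf 75 bases before it and in S100a9 236 bases before it; Ngp held 1 match that began 138 bases before the start and another that began 11 bases before it, beyond the stretch printed. The PU.1 letters were in the windows of S100a8, Mmp8 and Ly6g, against 9.35% of all windows, and TATAAA in those of S100a8, S100a9, Mmp8 and Ly6g, against 13.6%. These matches describe the letters only; no binding was measured.

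Depth was similar in all libraries, between 22796771 and 26734561 reads counted in genes. Ramp1 had 88.3 to 91.4 FPKM (reads scaled to gene length and library size) in wild type and 1.35 to 3.53 FPKM in mutant libraries, so the labels held for the targeted gene. HSC markers were abundant in every library, with Kit between 260.0 and 461 FPKM, Procr between 51.9 and 72.0 FPKM and Hlf between 45.8 and 80.0 FPKM. Replicate 1 of both groups stood apart: the wild-type one had 6527 reads on Y-linked genes and the mutant one 6137, while no other library had more than 2, and their Xist reads were 10 and 5 compared with 1456 to 3540. The labels give no sex. Genotype differences, spreads and library patterns are therefore also given without replicate 1.

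All 10 members had higher fitted values in mutant HSCs, yet over all 6 libraries no difference was larger than the SD within groups. Without replicate 1 of either group it was larger for S100a8, S100a9 and Mmp9 only, as given below, and 0 members passed. Fitted log2 fold changes were above 0 for 50.1% of the 14443 genes tested. The members' median log2 fold change was 0.76, against 0.00 over all genes tested. By edgeR's quasi-likelihood test 0 members passed an adjusted p of 0.05, where 0.0208% of all genes did. At an unadjusted p under 0.05 the count was again 0, against 3.99% of all genes; DESeq2 and limma on FPKM also called 0 members. With Y-linked reads as a covariate, S100a8 had an edgeR unadjusted p of 0.0133 (adjusted p = 0.967) and S100a9 one of 0.0183 (adjusted p = 0.974), and the other 8 members stayed above 0.05. With the replicate number as a block, 4 members had an edgeR unadjusted p under 0.05 and 0 passed, as given in the last section. Exact two-sided permutation tests of 3 against 3 libraries gave p between 0.4 and 0.9, where 0.1 is the smallest this design allows. In no member did the mutant libraries lie entirely above the wild-type libraries, which held for 5.87% of all genes. The direction of the median and of some members rested on single libraries. With mutant replicate 3 left out the median was -0.0097 and 5 of 10 members were higher. With wild-type replicate 1 left out it was 0.20 with 7 of 10 higher. S100a8, S100a9, Retnlg and Mmp9 stayed higher whichever library was left out. Leaving out wild-type replicate 3 gave a median of 2.32, and leaving out mutant replicate 1 gave 1.22.

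The alarmins were the most abundant members in every library. S100a8 (ENSMUSG00000056054, mm10 chromosome 3, 90669071 to 90670034) had 11.8, 99.7 and 288 FPKM in wild-type replicates 1, 2 and 3 and 75.9, 355 and 445 FPKM in the mutant ones. S100a9 (ENSMUSG00000056071, chromosome 3, 90692632 to 90695721), which encodes its partner chain, had 11.9, 99.4 and 276 FPKM in wild type and 74.2, 306 and 403 FPKM in mutant libraries. For both genes replicate 1 was the lowest library of its group, replicates 2 and 3 of the mutant lay above all wild-type libraries, and mutant replicate 1 lay below wild-type replicate 2, so that the groups overlapped. The log2 fold change was 1.15 (SE 0.97; edgeR adjusted p = 0.999) for S100a8 and 1.03 (SE 0.95) for S100a9. The FPKM of S100a9 was between 0.861 and 1.01 times that of S100a8 in the 6 libraries, while the level of each varied more than 20-fold among wild-type libraries, 24.4-fold for S100a8 and 23.1-fold for S100a9. Wild-type replicate 1 carried most of that range, which was 2.88-fold for S100a8 and 2.77-fold for S100a9 between replicates 2 and 3.

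Among the secondary granule genes of the members, Ngp, which encodes neutrophilic granule protein, was the most abundant outside replicate 1 of wild type. Ngp (chromosome 9, 110419750 to 110423010) had 1.98, 40.8 and 128 FPKM in wild-type replicates 1 to 3 and 8.33, 59.8 and 135 FPKM in the mutant ones. The 2 replicates 3 nearly coincided and the 2 replicates 1 were far below all others, and its log2 fold change of 0.27 (SE 1.22) was the smallest among the members. Camp (chromosome 9, 109847375 to 109849456), the precursor of the antimicrobial cathelicidin peptide, had 3.67, 14.2 and 35.5 FPKM in wild type and 2.70, 32.6 and 36.6 FPKM in mutant libraries (log2 fold change 0.45, SE 0.96). It was the only member whose lowest level was in a mutant library alone.

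Ltf (chromosome 9, 111019292 to 111042766), the iron-binding protein lactoferrin, had 0.978, 6.95 and 26.6 FPKM in wild type and 4.19, 7.20 and 35.2 FPKM in mutant libraries. The replicates 2 of the groups were close to each other, and wild-type replicate 3 was above mutant replicates 1 and 2 (log2 fold change 0.45, SE 1.08). Lcn2 (chromosome 2, 32384633 to 32387797), which binds bacterial siderophores, had 0.832, 5.76 and 25.4 FPKM in wild type and 3.70, 17.0 and 30.4 FPKM in mutant libraries (log2 fold change 0.70, SE 1.06). Mmp8 (chromosome 9, 7558429 to 7568486), the neutrophil collagenase, had 0.241, 1.65 and 7.502 FPKM in wild type and 3.52, 1.62 and 9.76 FPKM in mutant libraries (log2 fold change 0.68, SE 1.04). Mmp8 differed from the other members in that mutant replicate 2, at 106 reads, lay below mutant replicate 1, at 197 reads.

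Ly6g and Mmp9, genes of the late stage, were low in all libraries. Mmp9 (chromosome 2, 164940780 to 164955850), the gelatinase, had 0, 1.30 and 5.57 FPKM in wild type and 1.09, 5.74 and 9.54 FPKM in mutant libraries, with a log2 fold change of 1.28 (SE 1.31). Retnlg (chromosome 16, 48872608 to 48874498), a resistin-like secreted protein of myeloid cells, had 0, 9.12 and 29.7 FPKM in wild type and 6.998, 23.7 and 36.9 FPKM in mutant libraries (log2 fold change 0.82, SE 1.26). Ly6g (chromosome 15, 75155240 to 75159126), the surface antigen used to sort mouse neutrophils, had 0, 0.470 and 1.96 FPKM in wild type and 0, 1.27 and 3.55 FPKM in mutant libraries, from 0, 11 and 43 reads and 0, 32 and 83 reads (log2 fold change 1.02, SE 1.56). In wild-type replicate 1 a count of 0 allows up to 3 reads, which is 0.0373 FPKM for Mmp9, 0.195 FPKM for Retnlg and 0.126 FPKM for Ly6g, and in mutant replicate 1 it allows 0.140 FPKM for Ly6g; these limits cover counting error only. All 3 genes were thus highest in mutant replicate 3 and not detectable in wild-type replicate 1 at this depth.

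**Figure D1:**
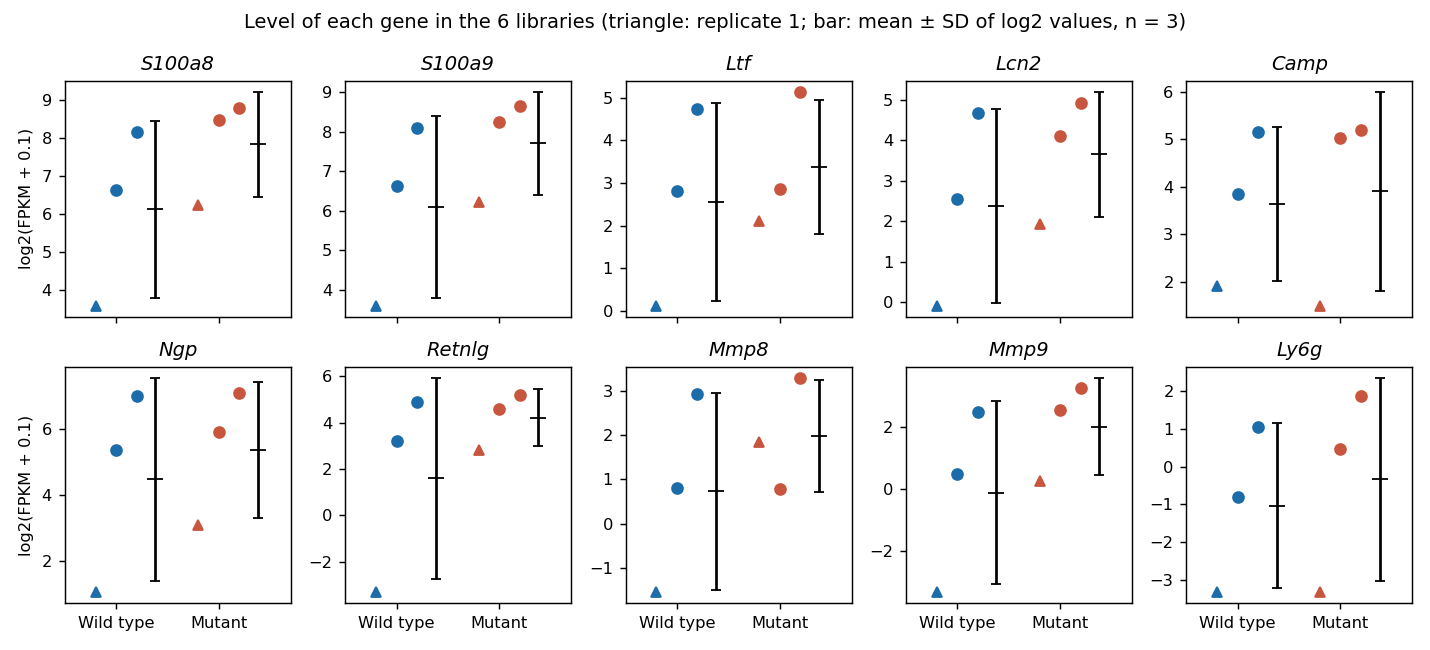
Level of each of the 10 genes in the 6 libraries, as log2(FPKM + 0.1), with wild type in blue and mutant in red; triangles are replicate 1, circles replicates 2 and 3 from left to right, and black bars the mean and SD of the log2 values (n = 3 per group). In 9 of 10 genes both triangles lie below all 4 circles, and the groups overlap in all 10.

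The authors' deposited table gives close values for its own comparison, with a log2 fold change of 1.15 for S100a8, 1.03 for S100a9 and 0.26 for Ngp in the authors' deposited table and an adjusted p of 0.99977 for all 10 members. Both that table and the fit here start from the same read counts.

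Libraries of 1 group differed widely in these genes. The SD of log2 CPM within groups (counts scaled to library size) lay between 1.88 for S100a9 and 3.07 for Mmp9, with a median of 2.04, against a median of 0.24 over all genes tested. On this measure every member lay at or above percentile 98.3 of all genes tested. The biological coefficient of variation that edgeR estimated was 0.779 for S100a8, 0.968 for Ngp and 1.41 for Ly6g, against a median of 0.195 over all genes tested. Ngp varied 64.8-fold among wild-type and 16.2-fold among mutant libraries. Lcn2 varied 30.5-fold and 8.20-fold, and Camp 9.65-fold and 13.6-fold. Much of this rested on replicate 1 of each group. Between replicates 2 and 3 alone, Ngp varied 3.14-fold in wild type and 2.25-fold in the mutant, Lcn2 4.41-fold and 1.79-fold, and Camp 2.49-fold and 1.12-fold. The members' median within-group SD was then 1.03, against 0.22 over all genes tested, and the members lay between percentile 85.9 (Camp) and percentile 97.6 (Mmp8).

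**Figure D2:**
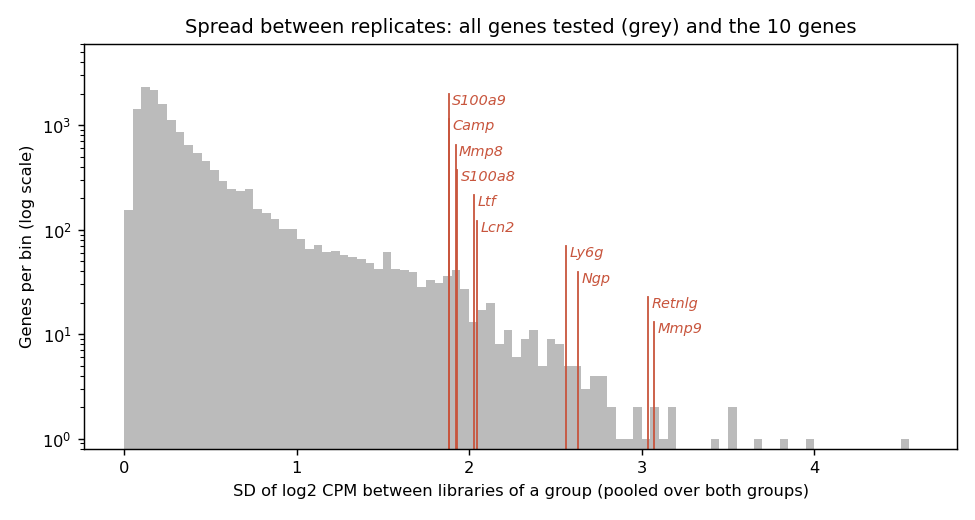
Number of genes (log scale) by the SD of log2 CPM between libraries of a group, pooled over both groups; grey bars are the 14443 genes tested and red lines the 10 members. The members lie between 1.88 and 3.07, in the right tail of the distribution.

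The libraries stood in much the same order for most members. Mutant replicate 3 was the highest library for 10 of 10 members, as for 16.9% of all genes tested. Replicate 3 was the highest of its group in both groups for 10 of 10 members, against 8.56% of all genes. Wild-type replicate 1 alone was the lowest library for 8 of 10 members, against 15.7% of all genes; the exceptions were Camp, where mutant replicate 1 was lowest, and Ly6g, where both replicates 1 had 0 reads. Both replicates 1 lay below the other 4 libraries for 9 of 10 members, all but Mmp8, against 8.52% of all genes. Wild-type replicate 3 lay above mutant replicate 2 for 7 members and below it for S100a8, S100a9 and Mmp9. In a bulk library, fewer cells of a type and less RNA per cell cannot be told apart, and which cells the members' reads came from was not tested.

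Together the members took 503, 4730 and 13945 reads in wild-type replicates 1, 2 and 3 and 2575, 12598 and 19546 reads in the mutant ones. Even in mutant replicate 3, where they were highest, this was 788 CPM, and it was 19.8 in wild-type replicate 1. S100a8 and S100a9 supplied 54.5% of the members' reads in wild-type replicate 1 (95% Wilson interval 50.1 to 58.8), 47.7% in replicate 2 (46.3 to 49.1) and 42.9% in replicate 3 (42.0 to 43.7). In the mutant libraries they supplied 60.4% (58.5 to 62.3), 63.2% (62.4 to 64.1) and 48.7% (48.0 to 49.4). The groups overlapped in this share, and the intervals cover counting error only.

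Relative to S100a8 in the same library, the granule genes differed in how steady they were. Lcn2 was the steadiest, between 5.78% and 8.83% of the S100a8 FPKM in wild type and between 4.78% and 6.82% in mutant libraries. Ngp ranged from 16.8% to 44.6% in wild type and from 10.97% to 30.2% in mutant libraries. Camp was at 12.3% to 31.2% in wild type and 3.56% to 9.18% in mutant libraries, the only one of 9 such ratios in which the groups did not overlap. Over all genes tested 1.42% were lower relative to S100a8 in all mutant libraries. That share counts 1 direction only. It also covers genes that vary far less than the members (median within-group SD 0.24 against 2.04), so it does not measure how rare the Camp ratio is. The ratio was examined after the values had been seen, so no test is given.

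**Figure D3:**
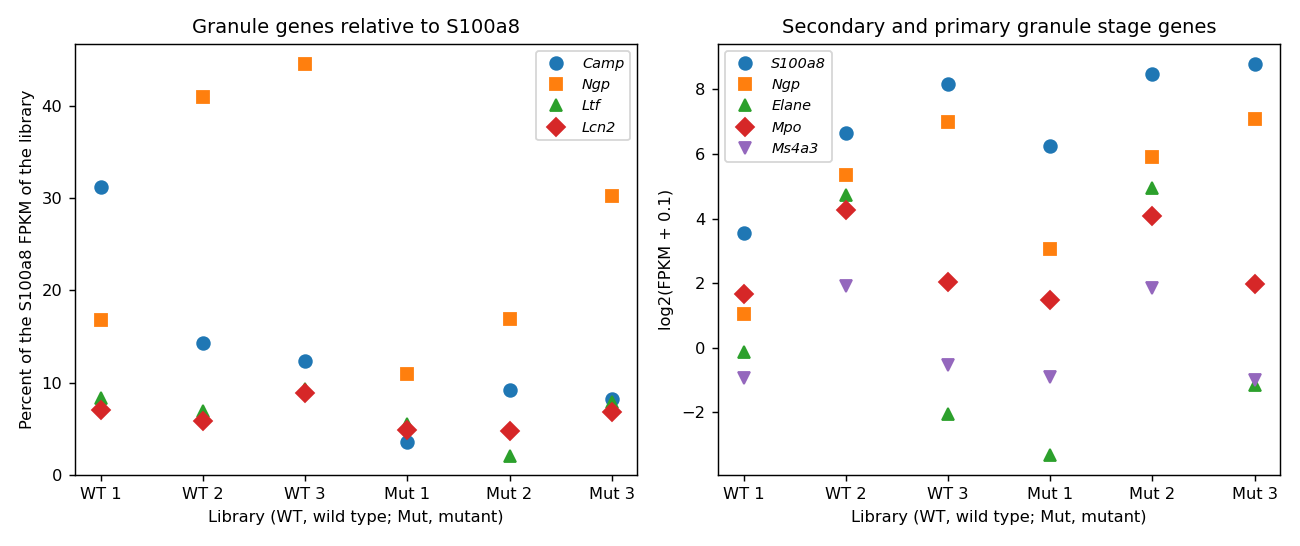
Left, FPKM of Camp, Ngp, Ltf and Lcn2 as a percent of the S100a8 FPKM in each library; right, log2(FPKM + 0.1) of S100a8 and Ngp and of the earlier-stage genes Elane, Mpo and Ms4a3. Camp lies below 10% of S100a8 in the mutant libraries only, and Elane, Mpo and Ms4a3 are highest in replicate 2 of each group, where S100a8 and Ngp are not.

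The 2 libraries with Y-linked reads were compared with the other 4, with genotype in the model, as a test added after the data were seen. All 10 members were lower in the libraries with Y-linked reads, by a median of -3.28 on the log2 scale against -0.01 over all genes tested. S100a8 had a log2 difference of -3.12 (SE 0.56), Camp -3.21 (SE 0.48) and Ngp -4.34 (SE 0.74); Ly6g had 0 reads in both, so its fitted size is not given. None passed over all genes (edgeR adjusted p between 0.308 and 0.758), where 0.00692% of all genes were called lower. At an unadjusted p under 0.05 it was 9 of 10 members, all but Mmp8, against 3.68% of all genes lower in these libraries. Replicate 1 of each group is also the library with Y-linked reads, so cell sex and any other property of these replicates cannot be told apart.

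Genotype differences were then taken within these subsets. In replicates 2 and 3 alone, 2 against 2 libraries, all 10 members were still higher in mutant cells, with a median log2 fold change of 0.65, and 0 passed the test. S100a8 had 1.07 (SE 0.45; edgeR adjusted p = 0.9997), S100a9 0.94 (SE 0.44), Mmp9 1.18 (SE 0.65) and Ngp 0.23 (SE 0.58). The within-group SD of log2 CPM in these libraries was 0.76 for S100a8, 0.74 for S100a9 and 1.08 for Mmp9. For every other member the SD was larger than the difference. Between the replicates 1, 1 library against 1 and therefore with no test, S100a8 was higher in the mutant by 2.65 on the log2 scale, S100a9 by 2.61, Lcn2 by 2.06, Ltf by 2.05, Ngp by 2.02 and Mmp8 by 3.68, while Camp was at -0.44.

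**Figure D4:**
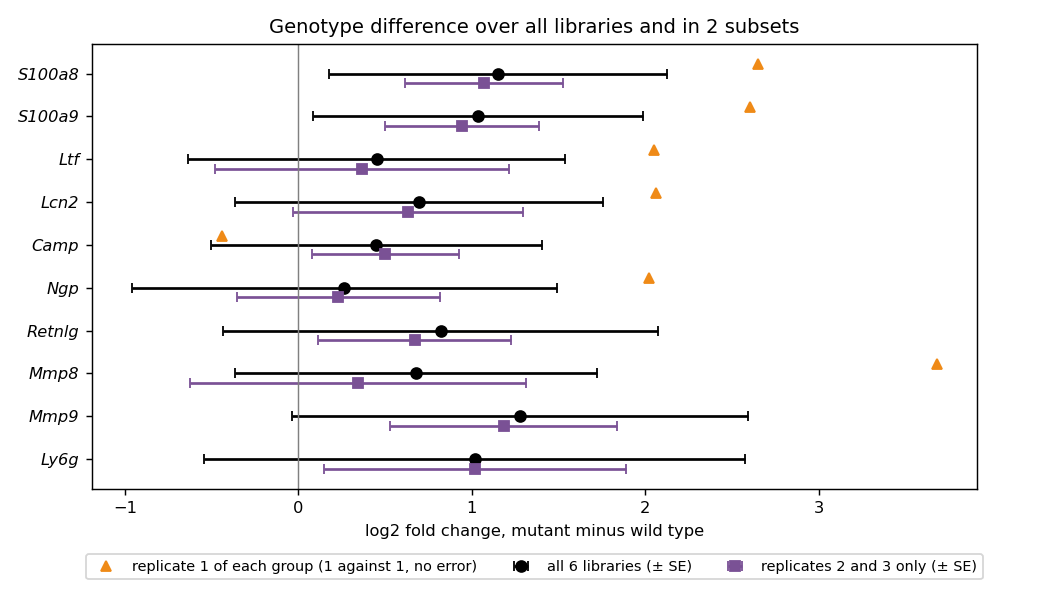
Log2 fold change, mutant minus wild type, of each gene: black circles, all 6 libraries with SE; purple squares, replicates 2 and 3 only with SE; orange triangles, replicate 1 of each group, 1 library against 1 without error and drawn only where both had reads. All black circles lie above 0, and the triangle of Camp lies below it.

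Other genes of the neutrophil programme followed the members only in part. Of 16 tested genes on a list of other secondary and tertiary granule genes, 12 had higher and 4 lower values in the mutant. The median was 0.11 on the log2 scale, and 0 passed in either direction. Over all genes tested 50.1% were higher, the share to set beside the counts of this list and those that follow. Cd177, a neutrophil surface protein stored in secondary granules, had 0.0873, 2.22 and 5.43 FPKM in wild type and 1.10, 3.60 and 7.52 FPKM in mutant libraries, the same order as Ngp. Chil3, a chitinase-like secreted protein, had 15.1, 15.0 and 30.9 FPKM in wild type and 0.998, 25.3 and 39.4 FPKM in mutant libraries. Lyz2, lysozyme, was abundant, between 473 and 614 FPKM, and so were Cyba, a subunit of the phagocyte oxidase, and Pglyrp1, a peptidoglycan-binding protein, at 107 to 130.4 FPKM and 44.4 to 81.6 FPKM. Hpgd, a prostaglandin-degrading enzyme, had the smallest unadjusted p on the list (0.0226) with a log2 fold change of 1.53 (SE 0.54).

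Of the 10 genes on a list of primary granule genes, 3 were highest in replicate 2 of both groups: Elane, Mpo and Ctsg. Elane, neutrophil elastase, had 26.5 and 30.5 FPKM in wild-type and mutant replicate 2 and at most 0.815 FPKM in the other 4 libraries. Mpo, myeloperoxidase, had 19.3 and 16.9 FPKM in the replicates 2 and 2.66 to 4.05 FPKM elsewhere. Ctsg, cathepsin G, had 3.17 and 4.89 FPKM against at most 0.0427 FPKM, and Ms4a3, a marker on the list of granulocyte-monocyte progenitors, 3.64 and 3.51 FPKM against at most 0.598 FPKM. Others on the list had no such peak: Prss57, a serine protease, had 4.53, 4.02 and 5.90 FPKM in wild type and 3.72, 2.90 and 4.16 FPKM in mutant libraries, and Prtn3, proteinase 3, 58.9, 70.2 and 27.5 FPKM and 71.6, 34.9 and 43.95 FPKM. No member had its highest level in a replicate 2. Of 8 primary granule genes tested, 4 were higher and 4 lower in the mutant (median -0.01) and 0 passed. Whether these library patterns differ was not tested, and the share of all genes with a peak in replicate 2 was not counted.

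Late neutrophil genes were low. Of 16 tested surface and cytokine genes of mature neutrophils, 10 were higher and 6 lower, by a median of 0.21, and 0 passed. Cxcr2, the chemokine receptor of mature neutrophils, had 0.466 to 2.15 FPKM in wild type and 0.821 to 2.64 FPKM in mutant libraries. Ifitm6 had 1.02, 0.891 and 5.38 FPKM in wild type and 1.22, 6.22 and 13.6 FPKM in mutant libraries (log2 fold change 1.55, SE 0.96). Csf3r, the G-CSF receptor, did not follow the members, at 35.1 to 38.4 FPKM in wild type and 39.3 to 53.9 FPKM in mutant libraries (log2 fold change 0.29, SE 0.12, unadjusted p = 0.0469 and adjusted p = 0.999 by edgeR). The stefin genes Stfa1, Stfa3 and BC100530 were listed at 0 in all libraries.

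The other S100 genes did not share the spread of S100a8 and S100a9. On a list of 12, the 8 genes tested had a median within-group SD of 0.17 in log2 CPM; 4 were higher, 4 lower and 0 passed. S100a11 had 289 to 339 FPKM and S100a10 159 to 188 FPKM over all libraries. S100a4, a cytoskeleton-binding member of the family, had 17.5 to 19.9 FPKM in wild type and 22.7 to 35.4 FPKM in mutant libraries, without overlap, and did not pass (log2 fold change 0.62, SE 0.22; edgeR adjusted p = 0.999).

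Receptors and inhibitors of the products had a median within-group SD of 0.52 in log2 CPM. Tlr4, a receptor of the alarmins, had 7.60 to 9.63 FPKM in wild type and 8.25 to 13.3 FPKM in mutant libraries (log2 fold change 0.28, SE 0.19). Timp3, an inhibitor of metalloproteinases, had 7.31 to 8.68 FPKM in wild type and 6.46 to 15.8 FPKM in mutant libraries (log2 fold change 0.61, SE 0.30). Of the 9 genes tested on this list 7 were higher, 2 lower and 0 passed.

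Transcription factors on a list of granule gene regulators had a median within-group SD of 0.25 in log2 CPM. Cebpe, which encodes C/EBP epsilon, was near the limit of detection, at 0, 0.195 and 0.104 FPKM in wild type and 0.142, 0.211 and 0.195 FPKM in mutant libraries, and was not tested. Cebpb had 10.8 to 12.7 FPKM and 10.03 to 15.1 FPKM in the groups, Spi1, which encodes PU.1, 43.3 to 52.1 FPKM and 38.8 to 47.8 FPKM, and Gfi1, a repressor needed for neutrophil development, 6.98 to 14.1 FPKM and 6.10 to 8.58 FPKM. Of 11 regulators tested 5 were higher, 6 lower and 0 passed, with a median log2 fold change of -0.04. For 3 of the 11, Cebpa, Cebpb and Cebpg, both replicates 1 lay below replicates 2 and 3 of both groups. The share over all genes was 8.52%. Cebpa had 0.419, 1.31 and 1.48 FPKM in wild type and 0.316, 1.16 and 0.627 FPKM in mutant libraries. Whether these levels bear on the members was not tested.

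**Figure D5:**
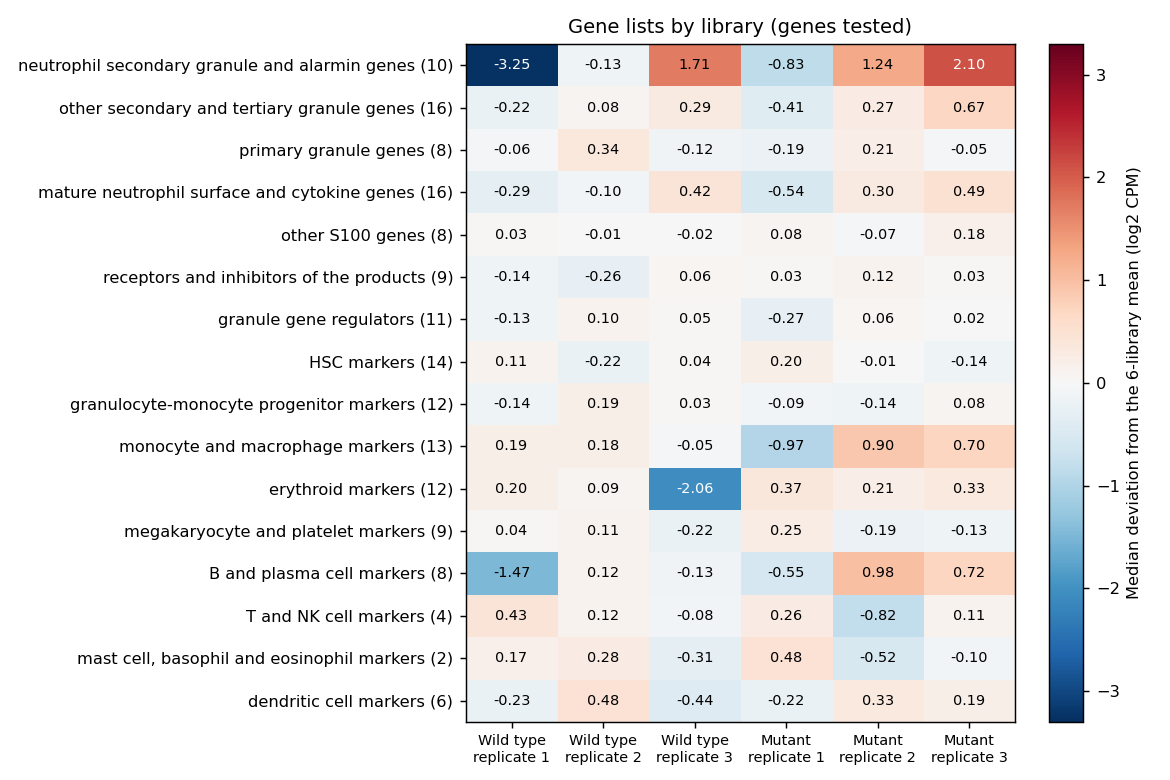
Median deviation of each gene list from the mean of the 6 libraries, in log2 CPM, with the number of genes tested in brackets; blue is below and red above the mean. The members run from -3.25 in wild-type replicate 1 to 2.10 in mutant replicate 3, while HSC markers stay between -0.22 and 0.20.

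Markers of other cell types that a marrow sort could hold were read in the same libraries. HSC markers (14 of 14 tested) summed to 1413 to 1714 FPKM in wild type and 1435 to 1828 FPKM in mutant libraries. Their list was broad and also held Cd34, Flt3 and Cd48. Cd48 had 17.8 and 19.2 FPKM in wild-type and mutant replicate 1 and 7.17 to 9.43 FPKM elsewhere. Granulocyte-monocyte progenitor markers (12 of 12 tested) summed to 821 to 859 and 725 to 893 FPKM. Large parts of that sum were Gstm1, at 176 to 240 FPKM, and Cd34, at 147 to 189 FPKM and on both lists. Ms4a3 was low, as given above. Monocyte and macrophage markers (13 of 14 tested) summed to 41.6 to 48.0 FPKM in wild type and 19.4 to 55.8 FPKM in mutant libraries, with Csf1r between 0.336 and 1.09 FPKM; their library medians were 0.19, 0.18 and -0.05 in wild-type replicates 1, 2 and 3 and -0.97, 0.90 and 0.70 in the mutant ones, where replicate 1 was also the lowest library of the members. B and plasma cell markers (8 of 12 tested) summed to 45.5 to 49.8 and 49.9 to 67.9 FPKM; by library median they were lowest in wild-type replicate 1 (-1.47) and next lowest in mutant replicate 1 (-0.55), as the members were, and Pax5 was listed at 0 in all libraries. Of the 8 tested, 7 were higher and 1 lower in the mutant, by a median of 0.93 on the log2 scale. Erythroid markers (12 of 12 tested) summed to 1186 to 1235 and 1078 to 1322 FPKM, nearly all of it Car2, and were lowest by library median in wild-type replicate 3 (-2.06), where the members were the highest of that group; 8 were higher and 4 lower in the mutant, by a median of 1.38. T and NK cell (4 of 12 tested), megakaryocyte and platelet (9 of 9), mast cell, basophil and eosinophil (2 of 10) and dendritic cell markers (6 of 10) had no library median beyond -0.82 or 0.48, and Ncr1, Prss34, Epx and Cd8a were listed at 0 throughout. Dendritic cell markers summed to 249, 524 and 243 FPKM in wild-type replicates 1, 2 and 3 and to 206, 414 and 514 FPKM in the mutant ones. None of the markers on all these lists passed the test, and their part in the members' levels was not tested.

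Outside the members, the genes with the most similar library pattern were found by the root mean square difference, over the 6 libraries, between a gene's centred log2 CPM and the median of the members. Only genes with a mean of at least 1 FPKM and a name other than a clone or predicted-gene name were ranked; without that filter 3 further genes lay nearer than C5ar1 and 44 nearer than Jun. Cd177 was nearest (0.38), followed by Depdc7 (0.52) and C5ar1, the receptor of complement C5a (0.64), against a median of 1.85 over all genes tested and 0.19 to 1.15 among the members themselves, which helped set the reference. The next of the ranked genes were the immediate early genes Fos (0.97) and Jun (1.05), the integrin gene Itgam (0.99), Ifitm6 (1.03), Myl10 (1.03), the pseudogene Pcna-ps2 (1.04) and Olfr99 (1.05). Fos had 1.52, 7.55 and 7.67 FPKM in wild type and 2.41, 31.4 and 46.8 FPKM in mutant libraries, again lowest in both replicates 1. The likeness rested partly on replicate 1: over the other 4 libraries the difference was 0.23 for Cd177 and 0.32 for Depdc7, against a median of 0.81 over all genes tested, but 0.94 for Fos, 0.96 for Itgam and 0.99 for Myl10. The members, which again helped set the reference, then ran from 0.047 (Retnlg) to 0.75 (Mmp8). Ltf was at 0.63 and every other member at 0.32 or below, so over these 4 libraries Mmp8 and Ltf shared the pattern least. Over all 6 libraries Retnlg (1.13) and Mmp9 (1.15) were the farthest members, and Ltf was at 0.55. None of the 10 ranked genes outside the members passed the genotype test.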

How the data were processed

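The authors deposited raw read counts per gene, with FPKM, a signal column of values scaled by size factors that was left aside, log2 fold changes and p-values, per the file headers. Per the submitters' processing notes the tools were CASAVA, STAR, HTSeq 0.6.1 and DESeq2 with build mm10; annotation and strand setting are not given in the sources used here, so overlapping genes may share reads. Counts entered edgeR 4.0.16 (TMM, filterByExpr, quasi-likelihood, no covariate; R 4.3.3) over all 14443 genes that passed the filter, with Benjamini-Hochberg adjustment and a threshold of 0.05. Each SE was taken from the fold change and the F statistic of its test. Levels are the deposited FPKM of a table of 35275 genes; log2 CPM used a prior count of 2. The count test was tested on simulated data. DESeq2 1.42.0, limma 3.58.1 on log2 FPKM with pseudocounts of 1 and 0.1, other scalings and filters, and each library left out were alternatives.

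Members and lists were chosen with earlier results of these data known. Besides the members, the rule named up to 4 genes per list by smallest unadjusted p with a mean of at least 1 FPKM, defining markers, Ramp1, sex-linked genes and the 10 genes nearest in library pattern. Other named genes (Chil3, Pglyrp1, Cebpa, Cebpe, Cebpg, the stefin genes, Epx, Cd8a, Prtn3, Cd34 and Cd48) were chosen after their values were seen. All list symbols were matched, 3 of them by identifier.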

Additional observations from a re-analysis of the deposited data

How the results depend on the processing

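Under all 16 alternatives 0 members passed the threshold. All 10 members were higher in mutant cells under each alternative except when a library was left out, where the count lay between 5 and 10 and the median log2 fold change between -0.0097 and 2.32. Over the same left-out libraries the log2 fold change of Ltf lay between -1.01 and 1.96, of Ngp between -0.72 and 1.65, of Ly6g between -0.31 and 2.75, of Mmp8 between -0.29 and 2.37, of Camp between -0.030 and 1.41 and of Lcn2 between -0.026 and 2.36. S100a8, S100a9, Retnlg and Mmp9 kept their direction under all 16 alternatives. Genes called over the whole table were 3 in the main fit, 42 with DESeq2 and between 2 and 6 with a library left out; the cause was not tested.

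Same-numbered libraries of the groups were not taken as pairs, although both replicates 1 hold Y-linked reads: deviations from the group means correlated at 0.14, 0.00 and -0.09 over genes for replicates 1, 2 and 3. Those values cover all genes tested. The members did follow the number, with both replicates 1 below the other libraries for 9 of them. With the number as a replicate block the members' median log2 fold change was 1.22, 2 genes were called over all genes and 0 members passed (edgeR adjusted p = 0.997 for each), while 4 had an unadjusted p under 0.05: S100a8 (0.00490), S100a9 (0.00681), Lcn2 (0.0167) and Mmp9 (0.0439). With Y-linked reads as a covariate the median was 1.15. Low counts limit Ly6g, Mmp9 and Retnlg in replicate 1.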
